A study of Mus musculus with 9 samples.

Results

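The genes described here encode the proteasome and its regulators, in the spinal cord of mice from a study of complete transection at T9. They were taken by name, as every symbol made of Psm, a letter from a to g and a number, and they are 48 of the 34745 genes in the deposited table. This choice was made with earlier results of these data known. RNA from spinal cord was sequenced in 3 libraries at day 0, 3 libraries at day 3 and 3 libraries at day 21. The day 3 and day 21 libraries carry their day in their titles. The day 0 libraries are titled N, which the labels do not explain, and were taken as day 0 because the design text names that time. All 3 groups share 1 organism and 1 tissue label. No strain, sex, age or cord length is stated in the labels, and no sham group was analysed here. No label states whether each library is a separate animal, and the p-values below then reflect only how much these libraries vary, which may be technical.

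The proteasome is the barrel-shaped protease that degrades ubiquitin-tagged proteins. Its 20S core stacks rings of alpha subunits, which form the gate, around rings of beta subunits, of which Psmb5, Psmb6 and Psmb7 carry the cutting sites in most cells. In immune cells, and in other cells exposed to interferon gamma, newly built cores take up Psmb8, Psmb9 and Psmb10 in their place, and this immunoproteasome is known for producing peptides for presentation by MHC class I. The 19S cap (Psmc ATPases and Psmd subunits) recognises and unfolds tagged proteins, while the Psme genes encode caps of another kind that open the core without ubiquitin.

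Of the 48 genes, 7 encode alpha subunits of the core, 4 encode beta subunits without a cutting site, 3 encode the constitutive and 3 the immunoproteasome catalytic subunits, and 2 encode core subunits known from testis (Psma8) and thymus (Psmb11). A further 6 encode 19S ATPases, 11 other 19S subunits, 3 chaperones of 19S assembly, 4 caps of the Psme kind, 1 the inhibitor PI31 (Psmf1) and 4 chaperones of core assembly (Psmg1 to Psmg4). Psma8 and Psmb11 were too low to be tested and are listed in every library at no more than 0.527 FPKM and 0.0598 FPKM. FPKM is the deposited level per length of transcript and per library total. The other 46 were among the 16494 genes tested. Psmc5, an ATPase, had the highest mean level over the 9 libraries at 162 FPKM, followed by Psmb1 at 119 FPKM and Psmc1 at 116 FPKM, and Psmb9 had the lowest of the tested genes at 0.727 FPKM. This order depends on the gene lengths in the authors' FPKM. They imply 1604 nt for Psmc5 and 1036 nt for Psmb1, where the exons in GENCODE M21 span 1394 and 4595 nt.

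Total counts per library ran between 14299679 and 24022923, and the 48 genes took 0.293 to 0.495% of them. Markers of the labelled tissue were present: the summed level of 9 neuron markers was 2566 to 2577 FPKM at day 0, and that of 7 oligodendrocyte markers was 2064 to 2220 FPKM. Day 21 replicate 2 stood apart, and calls that depend on it are given without it as well for the genes described in detail. In it 41 of the 45 proteasome genes that averaged 1 FPKM or more lay above both other day 21 libraries, against 48% of all genes at that level, and their median log2 difference from the mean of those libraries was 0.83. Day 0 replicate 1 did the same more weakly, with 36 of 45 genes above both others (52.4% of all genes) and a median log2 difference of 0.31. In day 21 replicate 2 the deviation of all genes followed gene length, with a median log2 difference of 0.94 below 1000 nt and -0.43 at 8000 nt or more. The median of the proteasome genes was above that of all genes in each of the 5 length classes, at 0.90 against 0.26 between 2000 and 4000 nt. Ribosomal protein genes took 1.4% of counts in that library and 0.536 to 0.978% in the others; the part of these differences in the results was not tested.

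**Figure D1:**
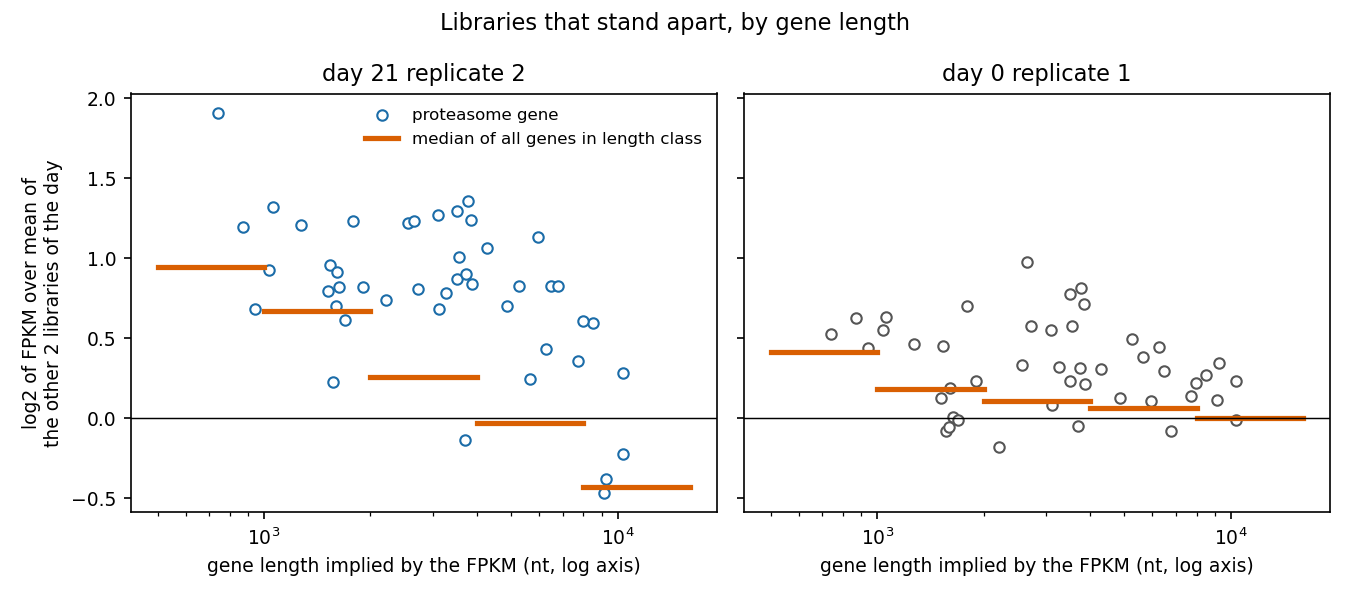
Each circle is a proteasome gene, with the gene length implied by its FPKM on a log axis (nt) and, on the vertical axis, the log2 of its FPKM in day 21 replicate 2 (left) or day 0 replicate 1 (right) over the mean of the other 2 libraries of that day. Orange bars are medians of all genes per length class; 41 of 45 proteasome genes lay above both other day 21 libraries, and circles lie above the bars in most classes.

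Of the tested proteasome genes, the immunoproteasome genes Psmb8 and Psmb9 had the largest fold changes against day 0. Psmb8 was 4.79-fold higher at day 3 and 4.59-fold higher at day 21 than at day 0, and Psmb9 was 2.38-fold and 3.45-fold higher. With all libraries none of Psmb5, Psmb6 and Psmb7 was called in either comparison. Without day 21 replicate 2 these 3 genes were called lower at day 21 than at day 0 (edgeR adjusted p of at most 0.0477). In that setting Psmb8 and Psmb9 were not higher at day 21 than at day 3 (log2 -0.58 and -0.11). A gene was called at an adjusted p under 0.05 in edgeR's quasi-likelihood test on the counts, two-sided and adjusted by Benjamini-Hochberg over all genes tested; log2 fold changes are given ± SE. Psmb10, the third immunoproteasome subunit, was not called with all libraries.

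Psmb8 and Psmb9 lie in the MHC region on chromosome 17 (Psmb8 at 34197721 to 34201454 on the plus strand, Psmb9 at 34181988 to 34187764 on the minus strand), Psmb10 on chromosome 8 (105935728 to 105938392, minus strand) and Psmb5 on chromosome 14 (54614120 to 54617995, minus strand), in the deposited loci of mouse build GRCm38. The promoter windows of the genes that the comparison turns on are shown because Psmb8, Psmb9 and Tap1 were all called higher and because the Psmb9 window is shared. They run from 250 bases before to 50 bases after the RefSeq start (GRCm38.p6), 5′ to 3′ on the gene's own strand, at chr17:34197945-34198244 (plus) for Psmb8, chr17:34187281-34187580 (minus) for Psmb9, chr8:105938343-105938642 (minus) for Psmb10 and chr14:54617946-54618245 (minus) for Psmb5. Capitals mark matches to TTCNNNGAA, like a gamma-activated site, or TGACNNNGC, like an antioxidant response element. Another motif, GAAA repeated after a gap of 2 bases, like an interferon-stimulated response element, was searched as well.
Psmb8: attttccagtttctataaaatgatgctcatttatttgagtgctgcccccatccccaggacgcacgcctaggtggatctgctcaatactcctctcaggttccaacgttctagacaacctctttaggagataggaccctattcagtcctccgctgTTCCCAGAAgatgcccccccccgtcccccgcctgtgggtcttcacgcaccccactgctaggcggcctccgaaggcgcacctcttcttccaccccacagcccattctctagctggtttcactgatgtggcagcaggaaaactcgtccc
Psmb9: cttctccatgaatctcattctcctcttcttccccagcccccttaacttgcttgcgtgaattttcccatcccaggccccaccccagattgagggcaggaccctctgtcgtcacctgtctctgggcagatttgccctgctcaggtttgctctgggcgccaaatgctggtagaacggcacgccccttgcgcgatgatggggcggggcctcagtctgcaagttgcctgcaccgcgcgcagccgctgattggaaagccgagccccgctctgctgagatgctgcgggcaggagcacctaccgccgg
Psmb10: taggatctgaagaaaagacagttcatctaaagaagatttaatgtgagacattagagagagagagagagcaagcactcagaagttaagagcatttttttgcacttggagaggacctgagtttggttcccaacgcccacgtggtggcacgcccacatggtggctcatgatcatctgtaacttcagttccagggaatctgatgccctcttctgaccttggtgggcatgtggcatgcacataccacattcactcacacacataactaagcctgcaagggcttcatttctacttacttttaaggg
Psmb5: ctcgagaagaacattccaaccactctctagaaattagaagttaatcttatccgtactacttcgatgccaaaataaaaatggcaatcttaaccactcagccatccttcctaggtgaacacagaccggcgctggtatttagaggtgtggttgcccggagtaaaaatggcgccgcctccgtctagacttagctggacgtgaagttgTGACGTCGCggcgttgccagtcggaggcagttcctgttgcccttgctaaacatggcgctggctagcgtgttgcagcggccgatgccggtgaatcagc

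All 3 motifs were searched on both strands. The Psmb8 and Psmb9 windows lie inside the deposited loci of these genes, because the RefSeq starts differ from the deposited ones. Psmb8 held TTCNNNGAA 97 bases before the start and Psmb5 held TGACNNNGC 47 bases before it, and the letters of the 3 motifs were not in the Psmb9 and Psmb10 windows. RefSeq windows were found for 40 of the 48 genes (43 windows). TTCNNNGAA was in 6.98% of them and in 8.30% of all 32851 windows of that length, TGACNNNGC in 14% and 12.4%, and the GAAA repeat in 11.6% and 3.44%. The 5 genes with the GAAA repeat were Psmb3, Psmd4, Psmd9, Psme1 and Psmg4, so the match did not follow the immunoproteasome genes. The Psmb9 window and that of Tap1, the peptide transporter gene on the other strand, share 275 bases (chr17:34187306-34187580).

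Psmb8, the β5i subunit, had 1.27, 0.808 and 0.738 FPKM at day 0, 4.94, 4.65 and 4.48 FPKM at day 3, and 3.05, 7.72 and 3.49 FPKM at day 21. Every library of day 3 and of day 21 lay above every day 0 library, and day 21 replicate 2 was the highest of all 9. The log2 fold change was 2.26 ± 0.35 (SE) at day 3 against day 0 (edgeR adjusted p = 0.00069) and 2.20 ± 0.35 at day 21 against day 0 (edgeR adjusted p = 0.0018). It was 2.25 and 1.67 without day 21 replicate 2 (edgeR adjusted p = 1.76e-06 and 7.65e-05), and the call held with each library left out in turn. Day 21 and day 3 were not called apart with all libraries (log2 -0.06, edgeR adjusted p = 0.911), but without day 21 replicate 2 Psmb8 was lower at day 21 (log2 -0.58, edgeR adjusted p = 0.0210).

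Psmb9, the β1i subunit, was low throughout, with 0.370, 0.292 and 0.234 FPKM at day 0, 0.739, 0.646 and 0.840 FPKM at day 3, and 0.846, 2.00 and 0.577 FPKM at day 21. Its day 0 libraries lay below all 6 others, on 26 to 56 counts a library. The log2 fold change was 1.25 ± 0.42 at day 3 against day 0 (edgeR adjusted p = 0.0376) and 1.79 ± 0.42 at day 21 against day 0 (edgeR adjusted p = 0.0120). The day 3 call was lost when any 1 of the 6 day 3 and day 0 libraries was left out (edgeR adjusted p up to 0.115), and the day 21 call without day 0 replicate 3 (edgeR adjusted p = 0.0515). Both held without day 21 replicate 2, at 1.24 and 1.13 (edgeR adjusted p = 0.00072 and 0.0039). Day 21 and day 3 were not called apart with all libraries (log2 0.54), and the log2 fold change between them was -0.11 without day 21 replicate 2.

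Psmb10, the β2i subunit, stood at a far higher level per length than Psmb8 and Psmb9, with 24.3, 17.2 and 18.0 FPKM at day 0, 23.7, 25.3 and 27.0 FPKM at day 3, and 23, 52.8 and 22.9 FPKM at day 21. Day 0 replicate 1 overlapped the day 3 and day 21 libraries, and only day 21 replicate 2 was well above the rest. The log2 fold changes were 0.30 ± 0.30 at day 3 and 0.60 ± 0.30 at day 21 against day 0 (edgeR adjusted p = 0.444 and 0.167). Without day 21 replicate 2, Psmb10 was called higher at day 3 (log2 0.30, edgeR adjusted p = 0.0456) but not at day 21 (log2 0.10, edgeR adjusted p = 0.567). Without both libraries that stand apart it was called higher at both times (log2 0.44 and 0.25, edgeR adjusted p = 0.00071 and 0.0318).

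The constitutive partners stood at higher levels per length than Psmb8 and Psmb9 in every library. Psmb5, the chymotrypsin-like subunit β5, had 94.9, 62.3 and 60.9 FPKM at day 0, 65.5, 64.6 and 72.2 FPKM at day 3, and 49.0, 99.1 and 37.6 FPKM at day 21. Psmb6, the caspase-like subunit β1, had 48.1, 31.4 and 34.2 FPKM, then 35.3, 43.3 and 43.9 FPKM, and then 30.8, 70.3 and 27.5 FPKM on the same days. Psmb7, the trypsin-like subunit β2, had 38.8, 24.5 and 27.6 FPKM, then 26.1, 27.9 and 27.3 FPKM, and then 22.5, 43.7 and 21.0 FPKM. For all 3 genes the groups overlapped, with day 0 replicate 1 and day 21 replicate 2 at the top of their days. The log2 fold changes of Psmb5, Psmb6 and Psmb7 were -0.16, 0.06 and -0.21 at day 3 against day 0, and -0.36, 0.05 and -0.19 at day 21 against day 0 (edgeR adjusted p between 0.433 and 0.929). All 3 were lower at day 21 than at day 0 without day 21 replicate 2, at -0.85, -0.48 and -0.59 (edgeR adjusted p = 0.0069, 0.0477 and 0.0131). Psmb6 lost this call without both libraries that stand apart (-0.29, edgeR adjusted p = 0.0747).

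**Figure D2:**
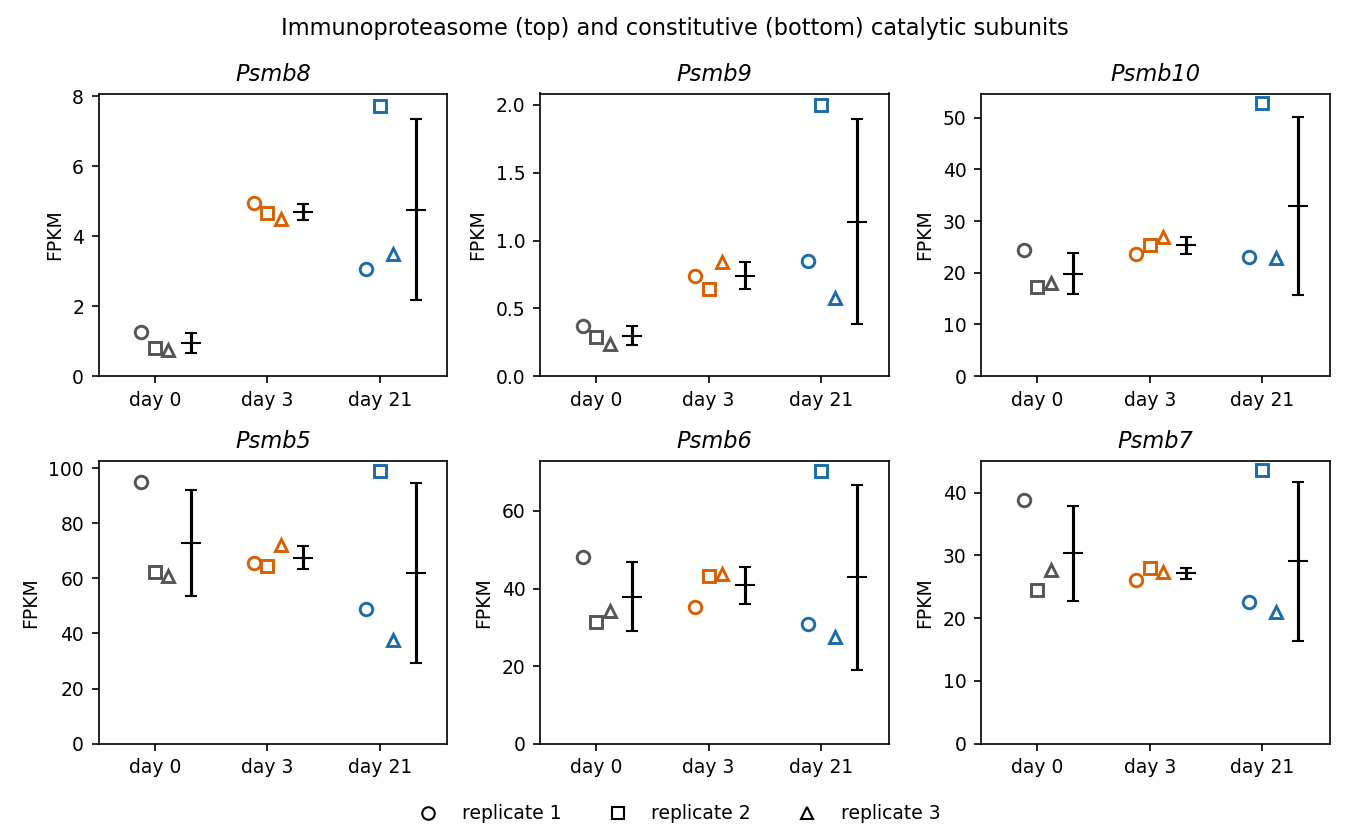
Levels of the immunoproteasome genes (top) and of their constitutive partners (bottom) in FPKM, with 1 symbol per library (circle, square and triangle for replicates 1, 2 and 3) and the mean ± SD of each day (n = 3) beside them. For Psmb8 and Psmb9 all day 3 and day 21 libraries lie above all day 0 libraries, and the blue square of day 21 replicate 2 is the highest in every panel.

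Dividing each immunoproteasome gene by the subunit it replaces, library by library, removes whatever scales both genes alike, though not a trend with gene length. For Psmb8 over Psmb5 the log2 ratio of FPKM was -6.23, -6.27 and -6.37 at day 0, -3.73, -3.80 and -4.01 at day 3, and -4.0, -3.68 and -3.43 at day 21. The day 0 libraries lay more than 2 log2 units below all others, while day 3 and day 21 overlapped. The mean was higher by 2.44 ± 0.09 (SE) at day 3 and by 2.58 ± 0.17 at day 21 than at day 0, that is 5.44-fold and 5.99-fold. The day 21 ratio in replicate 2 was between those of the other 2 libraries, although both genes were highest in it.

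For Psmb9 over Psmb6 the log2 ratio was -7.02, -6.75 and -7.19 at day 0, -5.58, -6.07 and -5.71 at day 3, and -5.19, -5.14 and -5.58 at day 21. For Psmb10 over Psmb7 it was -0.67, -0.51 and -0.62 at day 0, -0.14, -0.14 and -0.02 at day 3, and 0.03, 0.28 and 0.12 at day 21. In both pairs the 3 days did not overlap and were ordered day 0, day 3, day 21, although the lowest day 21 library and the highest day 3 library of Psmb9 over Psmb6 were equal to 2 decimals. Relative to day 0 the mean for Psmb9 over Psmb6 was higher by 1.20 ± 0.19 at day 3 and by 1.69 ± 0.19 at day 21, and that for Psmb10 over Psmb7 by 0.50 ± 0.06 and 0.74 ± 0.09. At day 21 against day 3 the means differed by 0.14 ± 0.19 for Psmb8 over Psmb5, 0.48 ± 0.20 for Psmb9 over Psmb6 and 0.24 ± 0.08 for Psmb10 over Psmb7. Without day 21 replicate 2 these differences were 0.13, 0.40 and 0.18. In that setting the edgeR log2 fold changes at day 21 against day 3 ran from -0.58 to -0.11 for the 3 immunoproteasome genes. Those of the 3 constitutive partners ran from -0.69 to -0.37. The higher ratios there did not reflect higher levels of the immunoproteasome genes.

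An exact permutation test over the assignments of the 9 libraries to 3 days gave p = 0.0143 for Psmb8 over Psmb5 and p = 0.0036 for each of the other 2 pairs, the smallest that this test can give. Benjamini-Hochberg adjustment over the 3 pairs gave 0.0143, 0.0054 and 0.0054. Between 2 days, 3 libraries against 3 cannot give an exact two-sided p under 0.1. That value was reached in 8 of 9 such tests, and the exception was Psmb8 over Psmb5 at day 21 against day 3 (exact p = 0.4; adjusted over the 9 tests 0.1125 and 0.4). Psmb8, Psmb9 and Psmb10 together made up 12.5 to 13.4% of the summed FPKM of the 6 catalytic genes at day 0, 18.4 to 18.8% at day 3, and 20.8 to 23.8% at day 21, most of it Psmb10. These shares rest on the gene lengths used in the authors' FPKM, which imply 3848 nt for Psmb8 and 871 nt for Psmb5, and 54.1% of the 50-base words of Psmb5 also occur in other genes, mostly the copy Gm3375. For Psmb8, 14.7% of exon bases are overlapped by the antisense gene Gm20496, and for Psmb9 5.79% by Tap1 on the opposite strand. Reads could be split or shared there, and no label states whether counting used strand.

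**Figure D3:**
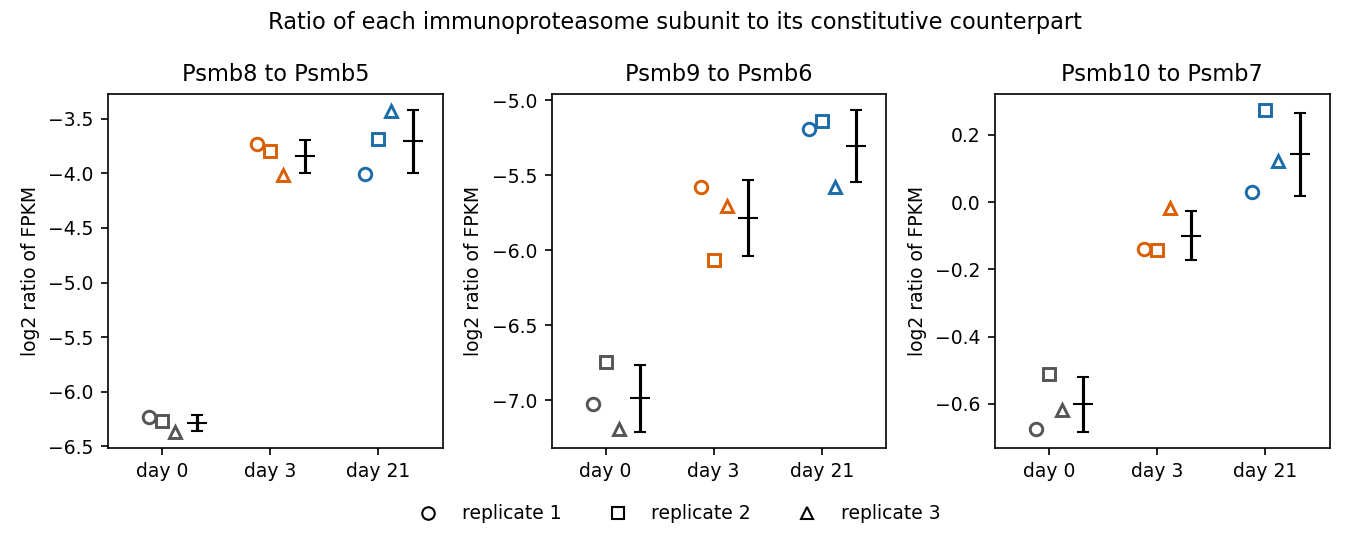
Log2 ratio of FPKM of each immunoproteasome gene to its constitutive partner, with 1 symbol per library and the mean ± SD of each day (n = 3). In every panel the 3 day 0 libraries lie below all others. Day 21 replicate 2 lies between the other libraries of its day for Psmb8 over Psmb5. It is the highest of all libraries for Psmb9 over Psmb6 and for Psmb10 over Psmb7.

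The rest of the core was not called in the edgeR fit of all libraries with the length trend kept. There, none of the 7 alpha and none of the 7 constitutive beta genes was called at day 3 or day 21 against day 0. The median log2 fold change of these 14 genes was 0.09 and 0.07, against 0.01 and 0.02 for all genes tested. Their log2 fold changes ran from -0.21 (Psmb7) to 0.50 (Psmb2) at day 3, and from -0.36 (Psmb5) to 0.50 (Psma3, edgeR adjusted p = 0.0501) at day 21. After removal of the length trend Psmb2 was called higher at day 3 (log2 0.45, edgeR adjusted p = 0.0067). Psma3 was then called higher at day 21 (log2 0.51, edgeR adjusted p = 0.0485). Without day 21 replicate 2, 4 of the 14 were called higher at day 3 (32% of all genes) and 5 were called lower at day 21 (22.4% of all genes), with medians of 0.09 and -0.29. Against day 3, 8 of the 14 were then lower at day 21 (25.7% of all genes), and with all libraries none was called.

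Over all tested proteasome genes, 5 of 46 were higher and 1 was lower at day 3 against day 0, where 24.8% of all genes tested were called higher and 19.5% lower. At day 21 against day 0, 3 were higher and 3 lower, with 17.9% and 11.3% of all genes called. At day 21 against day 3, 1 was higher and 2 were lower, with 11.7% and 16.1% of all genes called. In all 3 comparisons the share of proteasome genes called was below that of all genes. The 3 comparisons share libraries. Without day 21 replicate 2 the counts were 13 higher and 4 lower (32% and 29.2% of all genes), 4 higher and 22 lower (25.1% and 22.4%), and 1 higher and 24 lower (23.5% and 25.7%) in the same order. The share called lower at day 21 was then above the share of all genes against either earlier day. Without day 0 replicate 1 as well the counts were 19 and 5 (32.5% and 29.9%), 6 and 18 (26.1% and 23.5%), and 1 and 30 (27.4% and 28.8%).

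**Figure D4:**
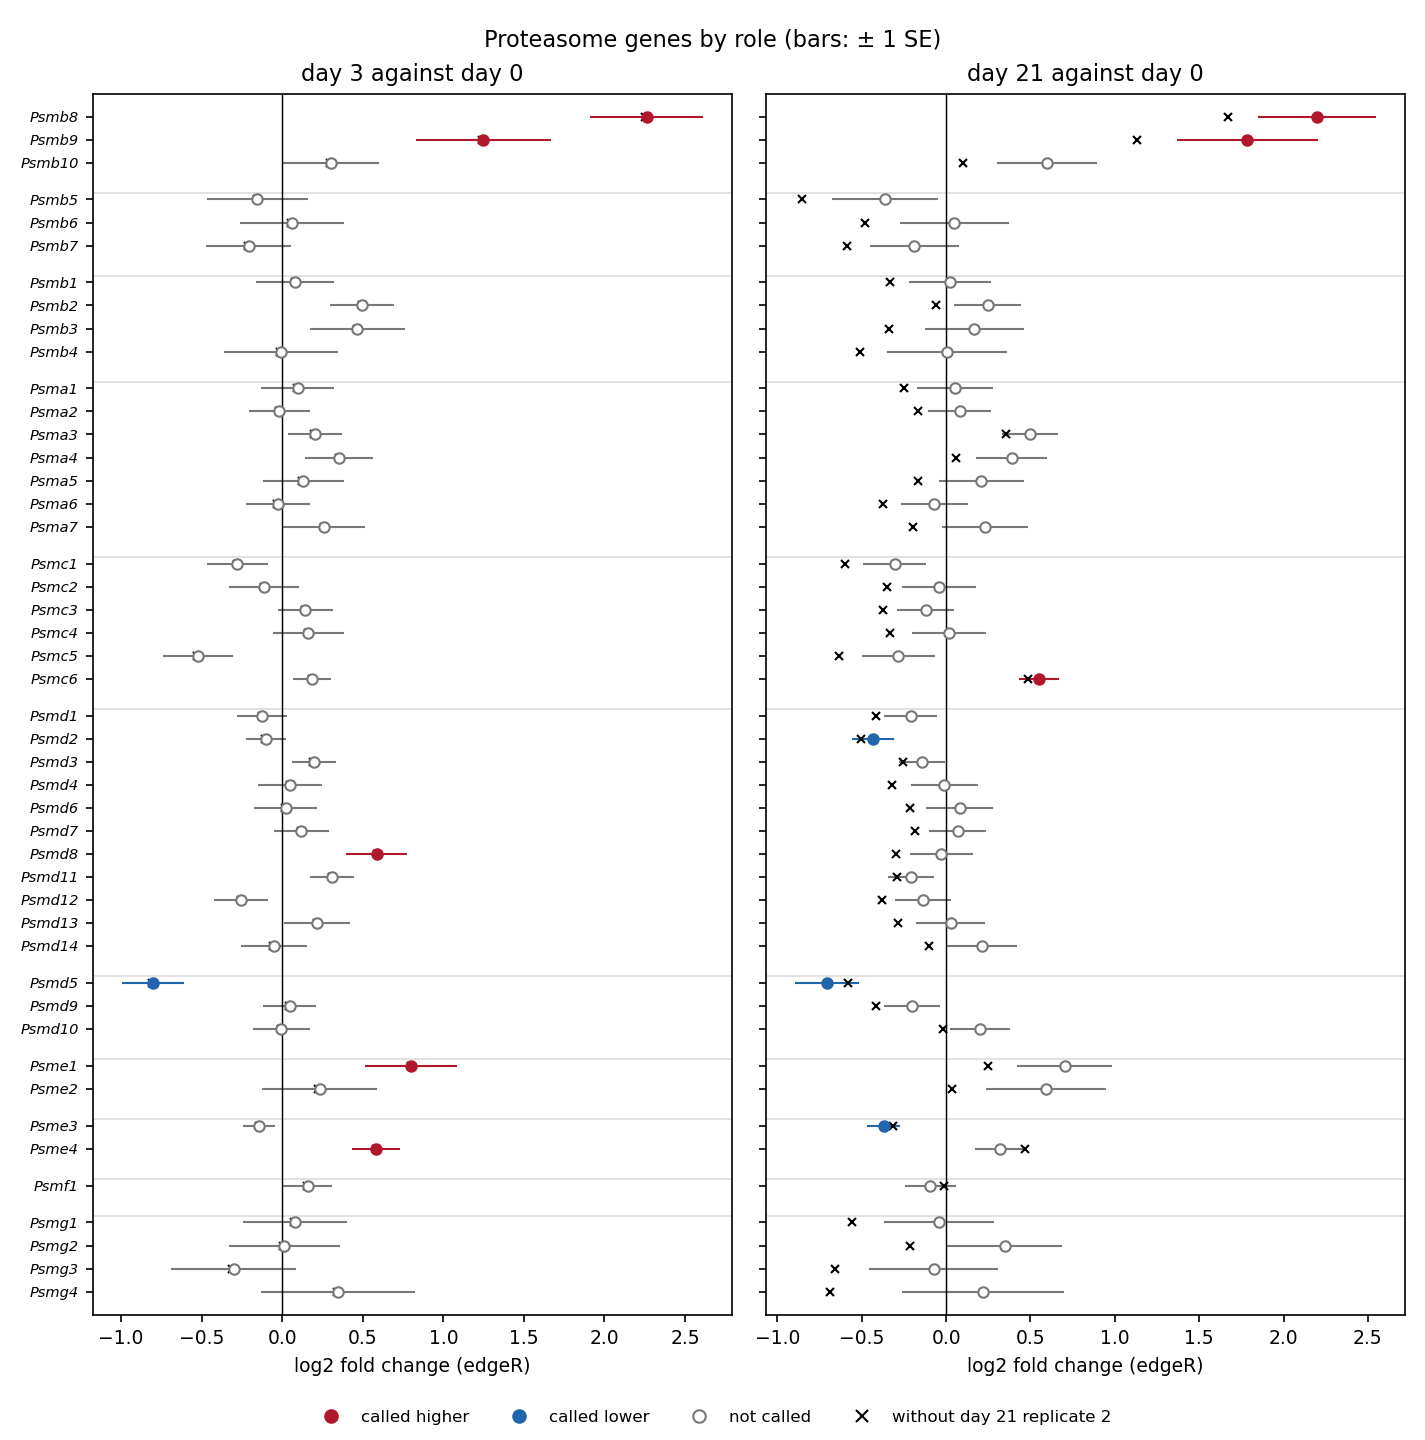
Log2 fold change (edgeR) of the 46 tested proteasome genes at day 3 (left) and day 21 (right) against day 0, with bars of ± 1 SE, filled where called, and crosses for the value without day 21 replicate 2. From the top the blocks are immunoproteasome, constitutive catalytic, other beta, alpha, 19S ATPase, other 19S, 19S chaperones, PA28 alpha and beta, other caps, PI31 and core chaperones; Psmb8 and Psmb9 lie farthest right, and at day 21 most crosses lie left of their circles.

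In the 19S cap 3 of the 17 genes were called in at least 1 comparison against day 0 with all libraries. These were Psmd8, higher at day 3, and Psmc6, higher, and Psmd2, lower, at day 21. Of all genes tested, 24.8% were called higher and 19.5% lower at day 3, and 17.9% and 11.3% at day 21. Psmd8, a lid subunit, had 47.7, 52.6 and 55.5 FPKM at day 0, 82.4, 79.3 and 81.4 FPKM at day 3, and 48.4, 76.3 and 42.9 FPKM at day 21. All day 3 libraries lay above all the others. It was higher at day 3 than at day 0 (log2 0.59 ± 0.19, edgeR adjusted p = 0.0316) and lower at day 21 than at day 3 (log2 -0.62 ± 0.19, edgeR adjusted p = 0.0393). The day 3 call was lost when any 1 day 3 or day 0 library was left out, at an edgeR adjusted p of at most 0.130, and the day 21 call when any 1 library other than day 21 replicate 2 was left out, at most 0.118. Both held without day 21 replicate 2 (log2 0.59 and -0.88, edgeR adjusted p = 0.00013 and 4.76e-05), and Psmd8 was then also lower at day 21 than at day 0 (log2 -0.30, edgeR adjusted p = 0.0226).

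Psmc6, an ATPase of the ring that threads substrates into the core, had 28.9, 30.7 and 30.2 FPKM at day 0, 35.1, 36.0 and 34.9 FPKM at day 3, and 40.0, 52.9 and 50.6 FPKM at day 21. The 3 days did not overlap, and with all libraries this was the only gene of the cap called higher at day 21 against either day. The log2 fold change was 0.55 ± 0.12 at day 21 against day 0 (edgeR adjusted p = 0.0080), called with each library left out in turn. Between day 21 and day 3 it was 0.36 ± 0.12 (edgeR adjusted p = 0.0481), and this call was lost without any 1 of day 0 replicates 2 and 3, the day 3 libraries and day 21 replicate 3 (edgeR adjusted p up to 0.142) and when the length trend was removed (edgeR adjusted p = 0.128). Psmc5, the proteasome gene with the highest mean FPKM, had 202, 170 and 185 FPKM at day 0, 136, 129 and 136 FPKM at day 3, and 132, 243 and 126 FPKM at day 21. Its day 3 libraries lay below all day 0 libraries, but the difference was not called with all libraries (log2 -0.52 ± 0.22, edgeR adjusted p = 0.0778). It was called once the length trend was removed (log2 -0.56, edgeR adjusted p = 0.0015). Psmc5 was lower at day 3 and at day 21 than at day 0 without day 21 replicate 2 (log2 -0.53 and -0.63, edgeR adjusted p = 3.79e-05 and 6.54e-05).

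Psmd2, a scaffold subunit that docks ubiquitin shuttles, had 42.5, 32.5 and 32.7 FPKM at day 0, 34.9, 33.9 and 35.1 FPKM at day 3, and 24.8, 32.3 and 29.8 FPKM at day 21. Day 21 lay below both other days, though by little. It was lower at day 21 than at day 0 (log2 -0.43 ± 0.13, edgeR adjusted p = 0.0298), and the call was lost without any 1 of day 0 replicates 1 and 3, the day 3 libraries and day 21 replicate 1 (edgeR adjusted p up to 0.122). Psmd11, a lid subunit, had 5.53, 5.94 and 5.20 FPKM at day 0, 7.25, 7.31 and 6.84 FPKM at day 3, and 5.61, 5.97 and 4.20 FPKM at day 21. It was lower at day 21 than at day 3 (log2 -0.51 ± 0.14, edgeR adjusted p = 0.0218). Leaving out any 1 day 3 library ended this call (edgeR adjusted p up to 0.0743), as did removal of the length trend (edgeR adjusted p = 0.0662). Psmd2 was also lower at day 21 than at day 3, and Psmd11 higher at day 3 than at day 0, without day 21 replicate 2 (log2 -0.40 and 0.31, edgeR adjusted p = 0.0126 and 0.0282). Psmd3, another lid subunit, had 21.1, 18.6 and 19.8 FPKM at day 0, 26.4, 21.6 and 22.7 FPKM at day 3, and 19.8, 23 and 16.0 FPKM at day 21. Its days overlapped at day 21 and day 3 and it was not called there with all libraries (log2 -0.34 ± 0.14, edgeR adjusted p = 0.0981), but was lower at day 21 without replicate 2 (log2 -0.45, edgeR adjusted p = 0.0072).

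Among the assembly factors Psmd5, the chaperone S5b that holds part of the 19S base before it joins the core, was, with all libraries, the only proteasome gene called lower at both later times. It had 6.98, 5.56 and 5.42 FPKM at day 0, 2.97, 3.25 and 4.44 FPKM at day 3, and 4.63, 3.32 and 4.0 FPKM at day 21. All 6 libraries of day 3 and day 21 lay below all day 0 libraries. The log2 fold change was -0.80 ± 0.19 at day 3 against day 0 (edgeR adjusted p = 0.0078) and -0.71 ± 0.19 at day 21 against day 0 (edgeR adjusted p = 0.0223). The day 3 call held with each library left out in turn, and the day 21 call was lost without day 0 replicate 1 or 2 (edgeR adjusted p = 0.0759 and 0.050). Psmd9 and Psmd10, the other 19S chaperones, had log2 fold changes between -0.20 and 0.20 against day 0 and were not called with all libraries. Psmd9 was lower at day 21 than at day 0 and at day 3 without day 21 replicate 2 (log2 -0.41 and -0.46, edgeR adjusted p = 0.0071 and 0.0040). The value of Psmd9 is uncertain, because Gm26745 overlaps 25.5% of its exon bases.

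None of the 4 core chaperones Psmg1 to Psmg4 was called with all libraries. Psmg3 had 3.38, 2.10 and 1.76 FPKM at day 0, 1.59, 2.29 and 2.20 FPKM at day 3, and 1.44, 4.24 and 1.87 FPKM at day 21, with all 3 days overlapping. Its log2 fold change was -0.30 ± 0.39 at day 3 against day 0 (edgeR adjusted p = 0.562). Without day 21 replicate 2, Psmg1 and Psmg4 were lower at day 21 than at day 0 (log2 -0.56 and -0.69, edgeR adjusted p = 0.0489 and 0.0477), and also than at day 3 (log2 -0.63 and -1.03, edgeR adjusted p = 0.0302 and 0.0075). Psmf1, which encodes the inhibitor PI31, had log2 fold changes of 0.16 and -0.09 at day 3 and day 21 against day 0 and was not called.

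Of the caps encoded by Psme genes, Psme1 and Psme4 were called higher at day 3 and Psme3 was called lower at day 21 against day 0. Psme1 and Psme2 encode the alpha and beta subunits of PA28, the cap induced by interferon gamma together with the immunoproteasome. Psme1 had 3.40, 3.44 and 2.87 FPKM at day 0, 6.56, 5.84 and 5.14 FPKM at day 3, and 4.53, 9.06 and 3.75 FPKM at day 21. All libraries of day 3 and of day 21 lay above those of day 0. It was called higher at day 3 (log2 0.80 ± 0.28, edgeR adjusted p = 0.0456) but not at day 21 (log2 0.70 ± 0.28, edgeR adjusted p = 0.0947). The day 3 call was lost when any 1 day 3 or day 0 library was left out (edgeR adjusted p up to 0.132) and when the length trend was removed (edgeR adjusted p = 0.0553), and without day 21 replicate 2 the log2 fold changes were 0.80 and 0.25 (edgeR adjusted p = 0.00021 and 0.153). Psme1 was then lower at day 21 than at day 3 (log2 -0.55, edgeR adjusted p = 0.0067).

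The Psme1 promoter window is shown for its match to the GAAA repeat, 10 bases after the start and on the minus strand, at chr14:55578244-55578543 (plus, GRCm38.p6, RefSeq), with the match in capitals as it reads on the gene's strand. It lies inside the deposited Psme1 locus, which runs from 55578123 to 55581529.
Psme1: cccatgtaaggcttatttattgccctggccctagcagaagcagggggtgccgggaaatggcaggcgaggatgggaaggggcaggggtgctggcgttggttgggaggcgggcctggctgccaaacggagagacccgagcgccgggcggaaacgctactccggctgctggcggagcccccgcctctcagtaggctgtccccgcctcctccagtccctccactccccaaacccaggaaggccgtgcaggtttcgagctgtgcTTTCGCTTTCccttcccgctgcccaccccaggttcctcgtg

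Psme2 had 2.15, 1.15 and 1.36 FPKM at day 0, 1.77, 1.85 and 2.08 FPKM at day 3, and 1.80, 4.26 and 1.67 FPKM at day 21, and its days overlapped. It was not called, with log2 fold changes of 0.23 ± 0.36 and 0.59 ± 0.36 at day 3 and day 21 against day 0 (edgeR adjusted p = 0.633 and 0.251). With both libraries that stand apart left out, it was called higher at day 3 (log2 0.51, edgeR adjusted p = 0.0152). The value is uncertain, because 28.3% of the 50-base words of Psme2 also occur in its copy Psme2b, which was itself called higher at day 3 (log2 1.06 ± 0.35, edgeR adjusted p = 0.0348).

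Psme4 encodes PA200, a cap known from chromatin and from sperm, and Psme3 encodes PA28 gamma, a nuclear cap. Psme4 had 3.93, 3.80 and 3.44 FPKM at day 0, 6.06, 5.49 and 5.79 FPKM at day 3, and 5.47, 4.02 and 5.64 FPKM at day 21. All libraries of day 3 and day 21 lay above those of day 0, with day 21 replicate 2 the lowest of them, opposite to its place for most proteasome genes. Psme4 was higher at day 3 (log2 0.58 ± 0.15, edgeR adjusted p = 0.0106), a call that held with each library left out. At day 21 its log2 fold change was 0.32 ± 0.15 (edgeR adjusted p = 0.140), and 0.47 without replicate 2 (edgeR adjusted p = 0.00097). Psme3 had 33.2, 33.7 and 35.0 FPKM at day 0, 32.1, 31.0 and 32.6 FPKM at day 3, and 30.0, 26.9 and 29.0 FPKM at day 21. The days did not overlap and it was lower at day 21 than at day 0 (log2 -0.37 ± 0.10, edgeR adjusted p = 0.0210), a call lost without day 0 replicate 2 or 3 (edgeR adjusted p = 0.0663 and 0.0816).

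Genes that work with the proteasome but do not carry a Psm name include ubiquitin receptors, deubiquitinases and the ubiquitin genes. Of 19 such genes tested, none was higher and 4 were lower at each time against day 0, where 19.5% of all genes were called lower at day 3 and 11.3% at day 21, and the median log2 fold changes were -0.17 and -0.14. The lower ones were the shuttle genes Ubqln2, Ubqln4 and Ubqln1 at both times (log2 -0.79, -0.53 and -0.50 at day 3, and -0.65, -0.59 and -0.51 at day 21, edgeR adjusted p between 0.0093 and 0.0357). The others were Usp14, the deubiquitinase of the 19S cap, at day 3 (log2 -0.52, edgeR adjusted p = 0.0035) and the shuttle gene Rad23b at day 21 (log2 -0.55, edgeR adjusted p = 0.0138). Pomp, the maturation factor of the core, and Nfe2l1, the transcription factor that induces proteasome genes, were not called with all libraries (log2 -0.18 and -0.53 at day 3, edgeR adjusted p = 0.598 and 0.201). Nfe2l1 was lower at day 3 and day 21 than at day 0 without day 21 replicate 2 (edgeR adjusted p = 2.94e-05 and 0.00071). In that setting 3 of the 19 were higher and 8 lower at day 3 (32% and 29.2% of all genes), and none was higher and 11 were lower at day 21 (25.1% and 22.4%). The 3 higher ones were Vcp, Akirin2 and Adrm1 (log2 0.26, 0.27 and 0.18, edgeR adjusted p = 0.0035, 0.0093 and 0.0388).

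The genes that take peptides from the proteasome to MHC class I were mostly higher. Of 13 tested, 12 were higher at day 3 (24.8% of all genes) and 10 at day 21 (17.9% of all genes) against day 0, none was lower with all libraries (without day 21 replicate 2, Calr was lower at day 21, log2 -0.16, edgeR adjusted p = 0.0479), and the median log2 fold changes were 1.18 and 0.99. The largest were those of Nlrc5, the transactivator of MHC class I genes (2.25 and 2.37), the light chain gene B2m (1.59 and 2.10) and the class I genes H2-K1 (1.52 and 1.86) and H2-D1 (1.48 and 1.72), with an edgeR adjusted p of at most 0.00041. Tap1, which shares its promoter window with Psmb9 and overlaps its exons on the other strand, had 0.425, 0.416 and 0.295 FPKM at day 0, 1.22, 0.979 and 1.08 FPKM at day 3, and 0.941, 1.24 and 1.01 FPKM at day 21. It was higher at both times (log2 1.47 ± 0.17 and 1.36 ± 0.18, edgeR adjusted p = 0.00014 and 0.00055), with no overlap between day 0 and the others.

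Of the interferon signalling genes 12 of 14 were tested, and 10 were higher at day 3 (24.8% of all genes), while 6 were higher and 1 (Jak1) was lower at day 21 against day 0 (17.9% and 11.3% of all genes). Irf8 and Irf1, transcription factors that act on interferon targets, were higher by 2.85 and 1.72 in log2 at day 3 and by 2.94 and 1.55 at day 21 (edgeR adjusted p between 1.84e-07 and 0.00135). Ifng, which encodes interferon gamma, was listed at 0 in all day 0 libraries and above 0 in 1 library of day 3 (0.0462 FPKM) and 1 of day 21 (0.114 FPKM, replicate 2). Ifnb1 was listed at 0 in every library.

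The cord is a bulk tissue, in which fewer cells of a type and less RNA per cell cannot be told apart. The summed level of 11 microglia and macrophage markers was 53.8 to 58.6 FPKM at day 0, 734 to 745 FPKM at day 3, and 539 to 760 FPKM at day 21. All 11 were called higher at both later times, where 24.8% of all genes were called higher at day 3 and 17.9% at day 21. The summed level of 12 T, NK and B cell markers was 0.128 to 0.485 FPKM at day 0, 0.721 to 0.871 FPKM at day 3, and 2.35 to 3.87 FPKM at day 21, with 5 of the 12 at 0 at day 0, and none of them passed the expression filter. The summed level of 9 neuron markers was 2566 to 2577 FPKM at day 0, 1224 to 1236 FPKM at day 3, and 1640 to 1779 FPKM at day 21. The 6 astrocyte markers summed to 879 to 890 FPKM at day 0, 2373 to 2434 FPKM at day 3, and 2024 to 2247 FPKM at day 21. The 7 Schwann cell markers summed to 443 to 455 FPKM at day 0, 880 to 896 FPKM at day 3, and 498 to 613 FPKM at day 21. The sums of the microglia and macrophage, lymphocyte, astrocyte and Schwann cell lists were above day 0 at both later times, as were Psmb8 and Psmb9, and those of the neuron list were below it. The astrocyte sum was mostly Gfap, at means of 553, 2012 and 1686 FPKM at day 0, day 3 and day 21. Slc1a2 had lower means at both later times (118, 41.7 and 88.4 FPKM on the same days), and Slc1a3 at day 3. Among Schwann cell markers Mal had lower means at both later times and Sox10 at day 21. Among lymphocyte markers Ncr1 and Ms4a1 had lower means at day 3. The 7 dendritic cell markers summed to 5.64 to 6.32 FPKM at day 0, 3.38 to 3.71 FPKM at day 3, and 4.68 to 5.10 FPKM at day 21. Most of this sum was Flt3, at means of 4.53, 1.81 and 3.20 FPKM on these days. Siglech, Cd209a, Xcr1 and Ccr9 had higher means at both later times than at day 0, while Clec9a and Zbtb46 were mixed. The 7 oligodendrocyte markers summed to 1959 to 1981 FPKM at day 3 and 1951 to 2078 FPKM at day 21. The 6 endothelial markers summed to 51.5 to 61.7 FPKM at day 0, 155 to 163 FPKM at day 3, and 50.1 to 67.0 FPKM at day 21, higher at day 3 alone. Skeletal muscle markers summed to 16.5 to 21.8 FPKM at day 0, 7.80 to 8.34 FPKM at day 3, and 126 to 243 FPKM at day 21, lower at day 3 and higher at day 21. The part of these levels in the results was not tested.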

How the data were processed

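RNA of 9 spinal cord libraries, 3 per day, was measured. Per the labels' protocols, poly-A RNA was made into paired-end TruSeq libraries and sequenced on a NovaSeq instrument. Per the submitters' processing notes, HISAT2 and StringTie were used, and the build named is the human GRCh38, although the organism is mouse and the deposited loci are those of GRCm38 (35 of 48 equal GENCODE M21). Tool versions and the annotation used are not given in these sources. The deposited table holds raw counts per gene and the authors' FPKM, which divides each count by a gene length and by the library total. Counts per library ran between 14299679 and 24022923, which limits precision for low genes, and 0 sample columns were left unmapped.

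The counts were tested with edgeR 4.0.16 in R 4.3.3 (TMM scaling, default expression filter, robust quasi-likelihood fit of all 9 libraries, 6 residual degrees of freedom, common biological coefficient of variation 0.205), with Benjamini-Hochberg adjustment over 16494 genes, two-sided. Ratios of FPKM were compared by exact permutation tests. Alternatives were DESeq2 1.42.0, limma 3.58.1 on log2(FPKM + 1) and log2(FPKM + 0.1), voom with sample weights, median-of-ratios scaling, no expression filter, fits of 2 groups, a replicate block, and leaving out each library in turn. Removal of a length trend (lowess, span 0.3) and leaving out both day 21 replicate 2 and day 0 replicate 1 were added after seeing the data. The code was tested on simulated counts. Gene lengths were those implied by count and FPKM. Motifs were searched in RefSeq promoter windows of 300 bases; overlaps and shared words of 50 bases were taken from GENCODE M21.

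The members, lists and motifs were chosen with earlier results of these data known. Per-library values are given for Psmb5 to Psmb10, Psme1, Psme2 and the 3 largest and 3 smallest log2 fold changes per comparison among tested genes at 1 FPKM or more in the higher group. For the other lists, called genes with the 4 largest changes and Pomp, Nfe2l1, Tap1, Irf1, Nlrc5 and Ifng are named; 1 further gene of this rule is not reported here. Psme4, Psma3 and the other genes named outside this rule were chosen after their values were seen.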

Additional observations from a re-analysis of the deposited data

How the results depend on the processing

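With all libraries, DESeq2 and median-of-ratios scaling kept every count of called proteasome genes within 1.5 times. At day 3 against day 0 (5 higher, 1 lower), no expression filter gave 2 higher, the fit of 2 groups 13 higher and 4 lower, limma on log2(FPKM + 1) 3 higher, voom with sample weights 19 higher and 5 lower, leaving out both day 21 replicate 2 and day 0 replicate 1 also 19 and 5, and removal of the length trend 3 lower. At day 21 against day 0 (3 and 3), the fit of 2 groups and limma on log2(FPKM + 1) gave 1 lower each, limma on log2(FPKM + 0.1) 0 lower, voom 5 higher and 17 lower, leaving out both libraries 6 and 18, and removal of the length trend 5 and 6. At day 21 against day 3 (1 and 2), no filter gave 0 and 1, the fit of 2 groups 0 and 0, limma with either pseudocount 1 lower, voom 29 lower, leaving out both libraries 30 lower, and removal of the length trend 0 higher. Leaving out 1 library gave 2 to 13 higher and 1 to 4 lower at day 3 against day 0, 2 to 4 and 1 to 22 at day 21 against day 0, and 0 to 1 and 0 to 24 at day 21 against day 3; the highest counts came without day 21 replicate 2. The cause was not tested.

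The replicate numbers did not pair the libraries: deviations of libraries with the same number correlated at -0.13 to 0.10. With the number as a block 1 gene was lower at day 21 against day 0, and 0 were higher and 1 lower at day 21 against day 3.

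With a pseudocount of 1 FPKM the log2 ratio of Psmb8 to Psmb5 differed by 1.64 at day 3 and 1.81 at day 21 from day 0, and that of Psmb9 to Psmb6 by 0.30 and 0.60, as the pseudocount is near the levels of Psmb8 and Psmb9. Leaving out 1 library gave 2.38 to 2.53, 2.44 to 2.73 and 0.00 to 0.29 for Psmb8 over Psmb5 (day 3 minus day 0, day 21 minus day 0, day 21 minus day 3), 1.10 to 1.34, 1.58 to 1.82 and 0.34 to 0.62 for Psmb9 over Psmb6, and 0.46 to 0.55, 0.68 to 0.80 and 0.18 to 0.30 for Psmb10 over Psmb7.

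Several genes that were not called with all libraries were called with the opposite sign in an alternative, as log2 fold changes. With voom weights these were Psmc4 -0.25, Psmd13 -0.23 and Psmd7 -0.20 at day 21 against day 0, and Psmb7 -0.34, Psma4 -0.28, Psmb4 -0.48 and Psmc2 -0.24 at day 21 against day 3. Over all fits that leave out libraries, whether or not the gene was called in them, the lowest and highest values were -0.17 and 0.35 for Psmb4 at day 3 against day 0. At day 21 against day 0 they were -0.48 and 0.28 for Psmb6, -0.34 and 0.42 for Psmb3, -0.33 and 0.16 for Psmc4, -0.33 and 0.23 for Psmb1, -0.69 and 0.57 for Psmg4, -0.28 and 0.19 for Psmd13, and -0.22 and 0.18 for Psmd7. Against day 3 at day 21 they were -0.37 and 0.20 for Psmb7, -0.23 and 0.19 for Psmd6, -0.29 and 0.19 for Psma4, -0.50 and 0.22 for Psmb4, and -0.24 and 0.23 for Psmc2. The lowest of these day 21 values came without day 21 replicate 2, for Psmd7 without day 0 replicate 1 as well; at these values Psmb1 (day 21 against day 0) and Psmb7, Psmd6, Psmb4 and Psmc2 (day 21 against day 3) were not called (edgeR adjusted p = 0.0751, 0.0723, 0.0709, 0.195 and 0.148).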
